A study of Mus musculus with 12 samples.

Results

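The genes described here encode the contents and the guards of the cytotoxic granule, the compartment with which killer lymphocytes kill. They are the granzyme proteases (Gzma, Gzmb, Gzmc, Gzmk and Gzmm), the pore protein perforin (Prf1), the granule membrane protein Nkg7, the proteoglycan core protein serglycin (Srgn) and the protease inhibitor Serpinb9. They were chosen by name as the known granule genes, and each was read from the probe set with the highest mean over the 12 arrays. The 9 genes are 9 of 18193 genes with a probe set of their own, and 11 probe sets matched them: 7 genes had 1 and 2 genes had 2.

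Lymph node cells came from P14-TCR mice, whose transgenic T cell receptor recognises the viral peptide gp33-41 on MHC class I. There were 4 groups of 3 Affymetrix arrays: wild-type cells and PKD2-null cells, each kept in culture for 4 h either without peptide or with 62.5 ng/ml of gp33-41. PKD2 (gene Prkd2) is a diacylglycerol-regulated kinase activated downstream of the T cell receptor. All 6 mice carried the same receptor, and each of the 3 wild-type and 3 null mice gave 1 unstimulated and 1 stimulated array. The suspensions were of whole lymph nodes, so B cells and other cells contributed RNA, and neither the age nor the sex of the mice was used here.

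A cytotoxic T cell that recognises its target moves its granules to the contact and releases perforin and granzymes. Perforin opens the target membrane and granzymes cleave proteins inside the target, with granzyme B as a potent inducer of apoptosis. Serglycin packs the positively charged granule proteins, and Serpinb9 inhibits granzyme B and so protects the cell that makes it. Naive CD8 T cells carry little of this machinery and build it after antigen, whereas NK cells and memory T cells hold part of it ready.

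The starts of the 5 genes whose group means spanned at least 1 on the log2 scale are shown first, since these genes rose with antigen in wild-type cells and some of them less in null cells than others. Each sequence is the 250 bases before the RefSeq gene start on GRCm38.p6, 5′ to 3′ on the gene's strand. The windows are chr14:56262335-56262584 (minus strand) for Gzmb, chr14:56234658-56234907 (minus) for Gzmc, chr13:33004291-33004540 (plus) for Serpinb9, chr10:61297586-61297835 (plus) for Prf1 and chr7:43436888-43437137 (plus) for Nkg7. Capitals mark matches on either strand to AP-1 (TGANTCA), CRE (TGACGTCA), RUNX (TGTGGT), T-box (TCACACC), STAT (TTCNNNGAA) and kappaB motifs.
Gzmb: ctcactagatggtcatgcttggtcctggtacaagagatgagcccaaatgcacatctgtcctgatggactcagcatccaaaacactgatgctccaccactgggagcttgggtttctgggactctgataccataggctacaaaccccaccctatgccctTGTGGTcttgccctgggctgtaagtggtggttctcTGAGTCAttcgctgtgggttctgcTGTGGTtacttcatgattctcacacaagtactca
Gzmc: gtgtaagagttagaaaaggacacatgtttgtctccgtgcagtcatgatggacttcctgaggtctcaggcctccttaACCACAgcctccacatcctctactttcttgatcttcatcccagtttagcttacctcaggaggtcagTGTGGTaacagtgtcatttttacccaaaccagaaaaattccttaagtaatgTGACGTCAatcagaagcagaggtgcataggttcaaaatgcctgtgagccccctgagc
Serpinb9: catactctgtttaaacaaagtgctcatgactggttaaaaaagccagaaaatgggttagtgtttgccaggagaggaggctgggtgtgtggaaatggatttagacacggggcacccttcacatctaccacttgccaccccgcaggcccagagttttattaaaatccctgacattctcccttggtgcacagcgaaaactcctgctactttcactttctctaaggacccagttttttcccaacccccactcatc
Prf1: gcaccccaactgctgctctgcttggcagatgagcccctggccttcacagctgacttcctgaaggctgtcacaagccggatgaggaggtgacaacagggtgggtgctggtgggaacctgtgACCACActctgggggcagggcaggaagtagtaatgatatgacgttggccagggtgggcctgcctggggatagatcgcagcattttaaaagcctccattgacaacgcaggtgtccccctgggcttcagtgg
Nkg7: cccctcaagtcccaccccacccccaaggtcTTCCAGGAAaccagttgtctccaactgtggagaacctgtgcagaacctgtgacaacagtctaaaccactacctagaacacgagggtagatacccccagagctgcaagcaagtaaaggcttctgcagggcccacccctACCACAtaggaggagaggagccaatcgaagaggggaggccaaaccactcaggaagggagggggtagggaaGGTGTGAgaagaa
The Gzmb window held an AP-1 match that began 58 bases before the start and RUNX matches at 93 and 34 bases. The Gzmc window held a CRE match at 57 bases and RUNX matches at 108 and 174 bases. Prf1 held a RUNX match at 130 bases, and Nkg7 held RUNX at 83, T-box at 13 and STAT at 220 bases. The Serpinb9 window held no capitalised motif and 2 matches to the short NFAT core GGAAA (163 and 20 bases), which was searched but not capitalised. It overlaps the STAT match of Nkg7 at 215 bases.

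Over all 32817 windows of 250 bases, 6.75% held the AP-1 letters, 1.55% CRE, 14% RUNX, 3.33% T-box, 7.01% STAT, 0.357% kappaB and 55.6% GGAAA. RUNX letters stood before 7 of the 9 genes, GGAAA before 5, T-box before 3, STAT before 2, and AP-1 and CRE before 1 each, while no window of theirs held kappaB. Gzmm and Srgn had 2 windows each, and either could count. A match describes letters only. Gzmb and Gzmc are neighbours in a granzyme cluster on chromosome 14, where the RefSeq gene order is Gzme, Gzmd, Gzmg, Gzmn, Gzmf, Gzmc, Gzmb. Gzma and Gzmk are neighbours on chromosome 13, and Serpinb9 lies between Serpinb6b and Serpinb9b on the same chromosome.

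The labels were checked against Prkd2, whose log2 signal averaged 10.17 in unstimulated wild-type and 6.00 in unstimulated null cells, and 8.33 against 5.48 after peptide (limma adjusted p = 2.7e-08 and 2.5e-06). The array medians lay between 4.67 and 4.72, and T cell markers were high on every array: Cd3e averaged 9.09 to 9.39 over the groups. 1 null mouse, replicate 2, stood apart before and after peptide. Among the 3 null arrays of each state it had the highest signal of 5 of the 9 granule genes. That count does not set it apart, since wild-type replicate 1 unstimulated and wild-type replicate 3 stimulated also had 5 of 9. In both states null replicate 2 had the highest null mean of the B cell, plasma cell, NK cell and memory-phenotype CD8 lists. It was also highest for the CD4 T cell, myeloid and mast cell lists, and lowest for the T cell list. Its mean over 6 memory-phenotype CD8 markers was 8.78 unstimulated against 8.04 and 8.15 in the other null mice. Where leaving it out changes a call on a granule gene, both values are given below.

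Signals are log2 values throughout, a change is a difference of group means, and a gene counts as called at a limma p under 0.05 after Benjamini-Hochberg adjustment over 45037 probe sets. In wild-type cells peptide raised 6 of the 9 granule genes: Gzmb by 7.97-fold, Prf1, Gzmc, Nkg7 and Serpinb9 by 2.70-fold to 3.04-fold, and Srgn by 1.47-fold. Gzma, Gzmk and Gzmm were not called. In null cells it raised 4 of 9: Prf1, Nkg7, Gzmb and Srgn. Of all genes, 15.1% were called higher and 20.4% lower in wild-type cells, and 12.5% higher and 19% lower in null cells. The median change of the 9 genes was 1.44 in wild-type and 0.21 in null cells, against 0.01 and -0.02 over all genes. These are whole-suspension signals, so fewer cells of a type and less RNA per cell cannot be told apart.

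**Figure D1:**
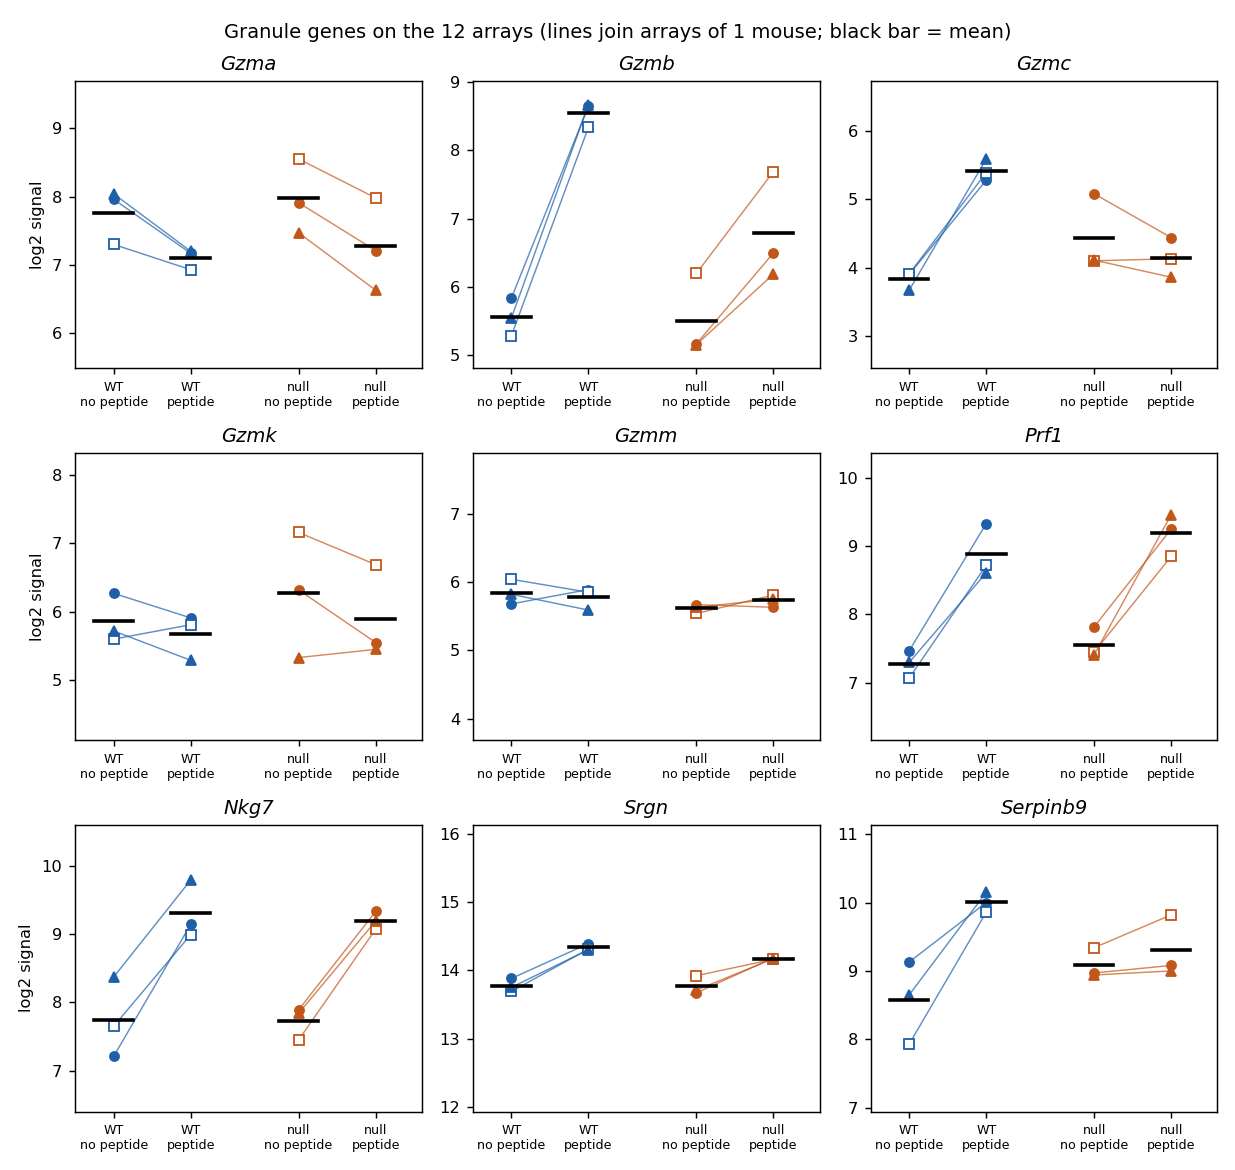
Log2 signal (vertical axis) of each of the 9 granule genes on the 12 arrays, by group, with wild-type mice in blue and PKD2-null mice in orange. Circles, hollow squares and triangles are replicates 1, 2 and 3, lines join the 2 arrays of 1 mouse, and black bars are group means. Gzmb rises steeply in the 3 wild-type mice, to between 8.34 and 8.67, and less in the 3 null mice, to between 6.19 and 7.69.

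Gzmb encodes granzyme B, the main apoptosis-inducing granzyme. Its signal was 5.84, 5.29 and 5.55 in unstimulated and 8.65, 8.34 and 8.67 in stimulated wild-type cells of replicates 1, 2 and 3. In null cells it was 5.17, 6.20 and 5.16 unstimulated and 6.50, 7.69 and 6.19 stimulated. The wild-type states were far apart. The null states touched, since the unstimulated replicate 2 stood at the level of the stimulated replicate 3, yet every null mouse rose. The rise was 3.00 in wild-type cells (SE 0.353, 95% interval 2.23 to 3.76, limma adjusted p = 2.4e-05) and 1.28 in null cells (2.43-fold, interval 0.51 to 2.05, limma adjusted p = 0.017). The null rise was called without any 1 mouse except null replicate 1 (limma adjusted p = 0.082), and was not called with the null arrays fitted alone (0.065).

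Stimulated null cells held less Gzmb than stimulated wild-type cells, by 1.76 (3.39-fold, interval -2.53 to -0.99, limma adjusted p = 0.038), and the 3 and 3 signals did not overlap. The share of all genes whose signals separate like this was not counted, here or for the genes below. Without antigen the genotypes differed in Gzmb by -0.05 (interval -0.82 to 0.72, limma adjusted p = 0.98). Per mouse, the rise was 2.81, 3.05 and 3.12 in wild-type mice and 1.33, 1.49 and 1.02 in null mice. Every null mouse thus rose less than every wild-type mouse. The difference of the 2 rises, -1.71 (interval -2.80 to -0.63), was not called in the fit that treats the arrays as unrelated (limma adjusted p = 0.51). It was called with the mouse as a block, which uses the 2 arrays of 1 animal together (SE 0.153, limma adjusted p = 0.016). That blocked call was lost without wild-type replicate 3 (limma adjusted p = 0.077) or null replicate 1 (0.15). The stimulated difference was larger without null replicate 2 (-2.21, limma adjusted p = 0.00035). It was not called without null replicate 1 (-1.61) or 3 (-1.46), with limma adjusted p of 0.2 and 0.14. Nor was it called without wild-type replicate 1 (-1.71), 2 (-1.87) or 3 (-1.70), with limma adjusted p of 0.089, 0.12 and 0.15.

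Gzmc encodes granzyme C, a relative of granzyme B expressed by activated killer cells. Its signal in wild-type cells went from 3.90, 3.91 and 3.67 to 5.28, 5.39 and 5.59. In null cells it was 5.08, 4.10 and 4.11 without and 4.44, 4.13 and 3.86 with peptide. The stimulated wild-type arrays lay above all others, with the unstimulated null replicate 1 next below them. Its unstimulated wild-type and stimulated null signals lay below the array medians, where small changes are hard to measure. So did the unstimulated null signals of replicates 2 and 3. The wild-type rise was 1.59 (3.02-fold, interval 1.1 to 2.09, limma adjusted p = 0.00013), and the null change was -0.28 (interval -0.78 to 0.21, limma adjusted p = 0.46).

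After peptide, null cells held 1.27 less Gzmc than wild-type cells (2.42-fold, interval -1.77 to -0.78, limma adjusted p = 0.025), without overlap. Before peptide the null signals lay above the wild-type signals by 0.60 (interval 0.11 to 1.1), which was not called (limma adjusted p = 0.46). Without null replicate 1 that difference was 0.28 (limma adjusted p = 0.73). The mice changed by 1.38, 1.48 and 1.93 in wild type and by -0.64, 0.03 and -0.25 in null. The null responses were spread around 0, and all lay below the wild-type ones. The difference of the changes was -1.88 (interval -2.58 to -1.18). It was not called with unrelated arrays (limma adjusted p = 0.23) and was called with the mouse as a block (SE 0.2, limma adjusted p = 0.034). That blocked call was kept only without wild-type replicate 1 (limma adjusted p = 0.047) or null replicate 2 (0.046), of the 6 mice left out in turn. The lower stimulated signal was called without null replicate 1 (limma adjusted p = 0.0033) or null replicate 2 (0.029). It was not called without null replicate 3 (0.09) or wild-type replicate 1 (0.053), 2 (0.11) or 3 (0.12).

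The remaining measured granzymes of the chromosome 14 cluster lay near the floor of the scale. Gzmd, Gzme, Gzmf, Gzmg and Gzmn had group means between 2.72 and 3.44, near the lowest value of the table (2.427), and 0 of them were called by limma in any of the 5 comparisons or had an unadjusted p under 0.05. Whether probes bind the transcripts of neighbouring granzymes was not tested.

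Serpinb9, the granzyme B inhibitor, rose in wild-type cells and was not called in null cells. Its signal in wild-type cells was 9.13, 7.93 and 8.65 without and 10.00, 9.86 and 10.15 with peptide. In null cells it was 8.97, 9.34 and 8.94 without and 9.08, 9.82 and 9.00 with peptide. The wild-type states did not overlap, and the null states did. The change was 1.44 in wild-type cells (2.70-fold, SE 0.273, limma adjusted p = 0.0012) and 0.21 in null cells (interval -0.38 to 0.81, limma adjusted p = 0.68). All 3 stimulated null signals lay below the 3 wild-type ones, with null replicate 2 just under them. That difference, -0.71 (interval -1.30 to -0.11), was not called (limma adjusted p = 0.24).

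The wild-type mice rose in Serpinb9 by 0.87, 1.93 and 1.5 and the null mice by 0.10, 0.48 and 0.05. The smallest wild-type rise exceeded the largest null rise. The difference of the rises was -1.22 (interval -2.06 to -0.38), which was called neither with unrelated arrays (limma adjusted p = 0.55) nor with the block (0.15). The second probe set of Serpinb9 gave close values: 1.51 in wild-type cells (limma adjusted p = 0.0012), 0.25 in null cells and -0.81 between the stimulated genotypes (limma adjusted p = 0.2).

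**Figure D2:**
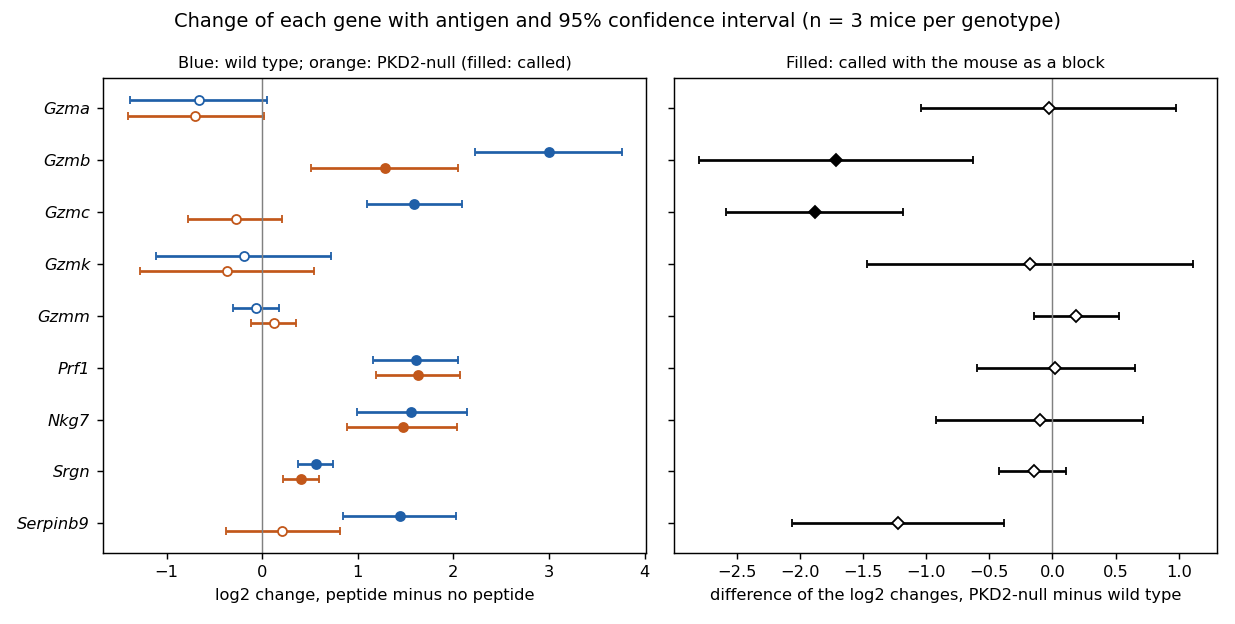
Log2 change of each of the 9 granule genes with 95% intervals (horizontal axis): on the left the peptide effect in wild-type (blue) and PKD2-null cells (orange), filled where called, and on the right the difference of the 2 effects, filled where called with the mouse as a block. Gzmb, Gzmc and Serpinb9 lie left of 0 on the right-hand side, at -1.71, -1.88 and -1.22, and Prf1 lies at 0.02.

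Prf1, the gene of the pore protein, rose in both genotypes by close amounts. Its signal went from 7.47, 7.07 and 7.30 to 9.33, 8.72 and 8.61 in wild-type cells, and from 7.82, 7.45 and 7.41 to 9.25, 8.85 and 9.46 in null cells. The states did not overlap in either genotype, and the genotypes overlapped after peptide. The rise was 1.61 (3.04-fold, SE 0.203, limma adjusted p = 4.4e-05) in wild-type and 1.63 (3.09-fold, limma adjusted p = 5.7e-05) in null cells. The difference of the rises was 0.02 with an interval of -0.60 to 0.65, so a moderate difference either way is within the error. A second Prf1 probe set, with group means of 5.29 to 5.53, did not show the rise: its change was -0.24 in wild-type (limma adjusted p = 0.14) and 0.01 in null cells. The mean of both probe sets rose by 0.68 in wild-type cells.

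Nkg7 encodes a granule membrane protein of killer cells that takes part in granule release. Its signal was 7.21, 7.65 and 8.37 without and 9.14, 8.99 and 9.79 with peptide in wild-type cells. In null cells it was 7.89, 7.45 and 7.84 without and 9.33, 9.07 and 9.19 with peptide. It rose by 1.56 (2.96-fold, limma adjusted p = 0.0005) and by 1.47 (2.76-fold, limma adjusted p = 0.0011). Both genotypes ended in the same range. The rises differed by -0.10 (interval -0.92 to 0.72, limma adjusted p = 0.98).

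Srgn, which encodes the core of the granule proteoglycan and is made by many blood cells, was already near the top of the scale. Its signal went from 13.88, 13.69 and 13.75 to 14.39, 14.31 and 14.30 in wild-type cells and from 13.67, 13.92 and 13.71 to 14.18, 14.16 and 14.17 in null cells. The rise was 0.56 (limma adjusted p = 0.00023) in wild-type and 0.40 (1.32-fold, limma adjusted p = 0.0033) in null cells. Stimulated null arrays lay just below all wild-type ones, by 0.16 (interval -0.35 to 0.03), which was not called (limma adjusted p = 0.4). Near the top of the scale an array can understate a rise, and this was not tested.

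Gzma, the tryptase granzyme held ready by NK and memory cells, was lower after peptide in 6 of 6 mice. Its signal went from 7.96, 7.30 and 8.04 to 7.17, 6.93 and 7.20 in wild-type cells, and from 7.91, 8.55 and 7.47 to 7.21, 7.98 and 6.63 in null cells. The spread between null mice was wider than the change, yet the mice changed by similar amounts: -0.79, -0.36 and -0.84 in wild type and -0.70, -0.57 and -0.83 in null. The mean changes of -0.66 and -0.70 were not called with unrelated arrays (limma adjusted p = 0.17 and 0.16) and were called with the mouse as a block (0.00095 and 0.00087). The wild-type change was also called when null replicate 2 was left out (limma adjusted p = 0.037). Null and wild-type changes differed by -0.03 (interval -1.04 to 0.98). Of 8 NK cell markers 1, Klrd1, fell with peptide in both genotypes, by 1.20 and 1.12, against 20.4% and 19% of all genes. With the mouse as a block, as for Gzma, 1 of 8 fell in wild-type and 5 of 8 in null cells: Klrd1, Klre1, Klrk1, Fcer1g and Tyrobp. Of all 18193 genes, 4007 and 3896 fell in that fit. The NK cell receptor gene Ncr1, of the same list, changed by -0.04, 0.39 and 0.31 in null mice. The list median change was -0.14 in wild-type and -0.41 in null cells, and its part in the Gzma result was not tested.

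Gzmk, a neighbour of Gzma and another tryptase of memory-type cells, was 6.27, 5.60 and 5.72 without and 5.91, 5.81 and 5.29 with peptide in wild-type cells. In null cells it was 6.32, 7.16 and 5.33 without and 5.55, 6.69 and 5.45 with peptide. Null replicate 2 was the highest in both null groups, and all groups overlapped. The changes were -0.19 (interval -1.11 to 0.72) and -0.37 (interval -1.28 to 0.54), with limma adjusted p of 0.81 and 0.63. Gzmm, which encodes a granzyme of NK cells, lay between 5.54 and 6.04 on all 12 arrays, and its changes of -0.07 and 0.12 were not called (limma adjusted p = 0.72 and 0.56).

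Between genotypes, 0 of the 9 genes were called without antigen by limma, with 1 (Gzmc) at an unadjusted p under 0.05. Of all 18193 genes, 0.044% were called and 1928 had such an unadjusted p. After antigen 2 of 9 were called lower in null cells, Gzmb and Gzmc, against 0.544% of all genes. The difference of the effects was called for 0 of 9, with 3 at an unadjusted p under 0.05, and for 2 of 9 with the mouse as a block. Among all 18193 genes, 1402 had such an unadjusted p for that difference. The called shares of all genes were 0.0055% without and 0.137% with the block. In 3 of 9 genes, Gzmb, Gzmc and Serpinb9, all null responses lay below all wild-type responses; this held for 11.2% of all genes.

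Granule function also needs the proteins that build, move and fuse granules. Of the 21 measured genes of biogenesis and exocytosis, peptide raised 4 and lowered 10 in wild-type cells, and raised 3 and lowered 10 in null cells. For this and the lists below, the shares of all genes were 15.1% higher and 20.4% lower in wild-type cells. In null cells they were 12.5% and 19%. Rab27a, the small GTPase that docks granules at the membrane, rose by 1.29 in wild-type and 0.74 in null cells (limma adjusted p = 7.6e-07 and 0.00012). Stx11, a membrane fusion protein, rose by 1.09 and 0.80, and Sytl2, a Rab27a partner, by 1.05 and 0.88. Lyst, a regulator of lysosome size, fell by 1.43 and 1.02, and Vamp8, a vesicle fusion protein, by 1.08 and 0.87.

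Rab27a was the 1 gene of the 21 called between genotypes. Its signal was 6.96, 6.75 and 6.87 in unstimulated and 8.20, 7.98 and 8.28 in stimulated wild-type cells, and 6.36, 6.19 and 6.46 and then 7.07, 7.10 and 7.05 in null cells. After peptide it was lower in null cells by 1.08 (SE 0.101, limma adjusted p = 0.00095), and 0 of 13 alternatives lost that call. Without peptide the difference was -0.53 (limma adjusted p = 0.089). The genotypes did not overlap in either state, and replicates were close together. The difference of its rises, -0.55, was not called (limma adjusted p = 0.46, and 0.2 with the block).

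Among the 8 measured other granzymes and serpins, peptide raised 1 and lowered 1 in wild-type cells. Serpinb6b, a neighbour of Serpinb9, rose by 0.89 (limma adjusted p = 0.0082), and changed by 0.02 in null cells. The call was lost without wild-type replicate 2 (limma adjusted p = 0.11) or 3 (0.062), and the difference of the effects, -0.88, was called neither way (0.63, and 0.15 with the block). Serpinb6a fell by 0.68 and 1.04.

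Of 7 granule proteases and their inhibitor, peptide raised 1 and lowered 3 in wild-type cells, and raised 1 and lowered 4 in null cells. Cst7, which encodes cystatin F, an inhibitor of the cathepsins that activate granzymes, rose by 1.96 in wild-type and 2.29 in null cells. After peptide it was higher in null cells by 0.84 (limma adjusted p = 0.048), the opposite direction to Gzmb, while 1.09% of all genes were called higher. Ctsl, a cathepsin, was lower by 0.91 (limma adjusted p = 0.046). Both calls stood near the threshold. That of Cst7 was lost in 8 of 13 alternatives and that of Ctsl in 7 of 13, of which 5 and 4 left out 1 mouse. Ctsd and Ctsb, other cathepsins, fell by 1.42 and 0.85 in wild-type and by 1.45 and 0.88 in null cells.

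**Figure D3:**
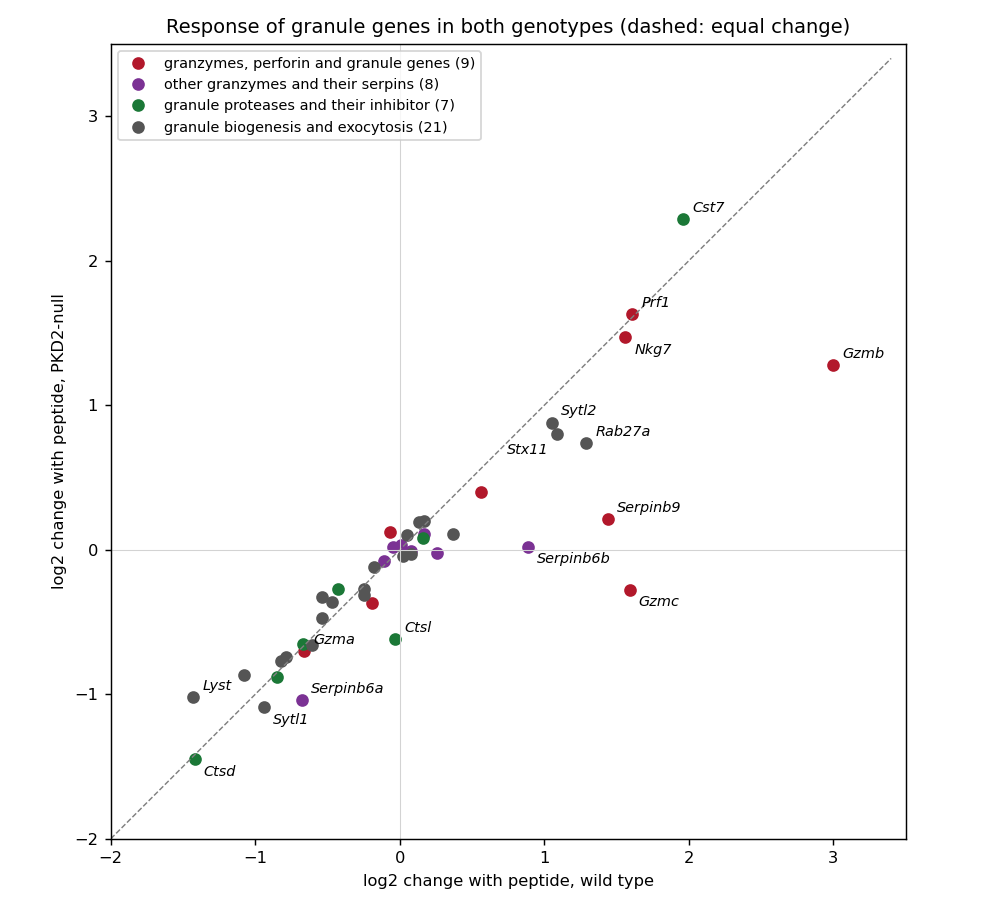
Peptide effect in PKD2-null cells (vertical axis, log2) against that in wild-type cells (horizontal axis, log2) for the 9 granule genes (red) and 3 other lists (purple, green and grey), with a dashed line of equal effects. Gzmb (3.00 and 1.28), Gzmc (1.59 and -0.28) and Serpinb9 (1.44 and 0.21) lie below the line, Prf1 (1.61 and 1.63) lies on it, and Cst7 (1.96 and 2.29) lies above it.

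Other effectors of killer cells rose in both genotypes. Of 10 killing ligands and secreted effectors 7 rose and 0 fell in each genotype. The chemokine Xcl1 rose by 9.19 and 8.83, and the chemokine Ccl4 by 6.37 and 5.55. The chemokine Ccl3 rose by 7.14 and 5.20, and the cytokine Ifng by 5.45 and 3.31. In Ccl3, Ccl4 and Ifng every null mouse rose less than every wild-type mouse, which held for 11.2% of all genes. It did not hold for the other genes of this list. The cytokine Tnf rose by 4.07, 4.49 and 4.63 in wild-type mice and by 4.37, 4.38 and 4.60 in null mice. The cytokine Lta rose by 3.76, 3.56 and 3.35 and by 3.72, 3.72 and 4.12. The killing ligand Fasl rose by 1.08, 1.42 and 0.99 and by 1.67, 1.27 and 2.13. Over the list of 10, the median difference of the effects was -0.07, with a range of -2.14 to 0.53. After peptide Ccl3 was lower in null cells by 1.80 (limma adjusted p = 0.018), without overlap; this was not called without wild-type replicate 3 (0.081), null replicate 1 (0.13) or null replicate 3 (0.085). The difference of its rises, -1.94, was called only with the mouse as a block (limma adjusted p = 0.41, and 0.034 with the block). That blocked call was lost without wild-type replicate 3 (limma adjusted p = 0.083) or null replicate 1 (0.17), 2 (0.098) or 3 (0.099). For Ifng that difference, -2.14, was not called in either fit (0.55 and 0.12).

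Among 15 measured transcription factors of cytotoxic cells, peptide raised 5 and lowered 3 in wild-type cells, and raised 3 and lowered 3 in null cells. Tbx21, the gene of T-bet, was raised by 5.67 and 5.23, Irf4 by 3.87 and 3.15, and Gfi1 by 3.17 and 3.19, while Stat5b fell by 1.44 and 1.19. None of the 15 was called between genotypes by limma (3 had an unadjusted p under 0.05 in each state). Of all 18193 genes, 1928 without and 3202 with peptide had such a p. Zeb2, which encodes a transcriptional repressor expressed in late effector cells, rose by 1.42 in wild-type cells. It changed by 0.33 in null cells, called only with the mouse as a block (limma adjusted p = 0.46, and 0.039 with the block). The difference for Zeb2, -1.09, was likewise called only with the block (0.59 and 0.046). That call was lost without any 1 of the 6 mice (limma adjusted p of 0.079 to 0.21). The blocked null change was lost without null replicate 2 (0.19) or 3 (0.18). The unstimulated signal was 5.85, 6.33 and 5.57 in null and 5.12, 4.50 and 4.93 in wild-type cells, not called (limma adjusted p = 0.22). Zeb2 is named because of its blocked call, after its values were seen.

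For the 5 genes with a span of at least 1, the genes with the nearest profile over the 12 arrays were found as the smallest root mean square difference of log2 values, each gene centred on its own mean. Gzmb was nearest to Atf3 (0.371), Igtp (0.379) and Gbp7 (0.383). Atf3, a stress-induced transcription factor, rose by 3.01 in wild-type and 1.80 in null cells, and Igtp and Gbp7, interferon-inducible GTPases, by 2.38 and 1.46 and by 2.17 and 1.36. Gzmc was nearest to Slc16a10 (0.29), Pim2 (0.379) and Bex1 (0.39). Slc16a10, an amino acid transporter, changed by 1.33 in wild-type and 0.07 in null cells.

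Serpinb9 was nearest to Rgs1 (0.209), AA467197 (0.214) and Samsn1 (0.215); Rgs1, a regulator of G protein signalling, changed by 1.23 and 0.32. Prf1 was nearest to Nab2 (0.171), Snhg17 (0.192) and Insig1 (0.193), and Nab2, a corepressor of EGR factors, changed by 1.42 and 1.70. Nkg7 was nearest to Ankrd39 (0.243), Tefm (0.251) and Trmt10a (0.255), and Ankrd39 changed by 1.61 and 1.19. Near profiles describe likeness over these arrays only.

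**Figure D4:**
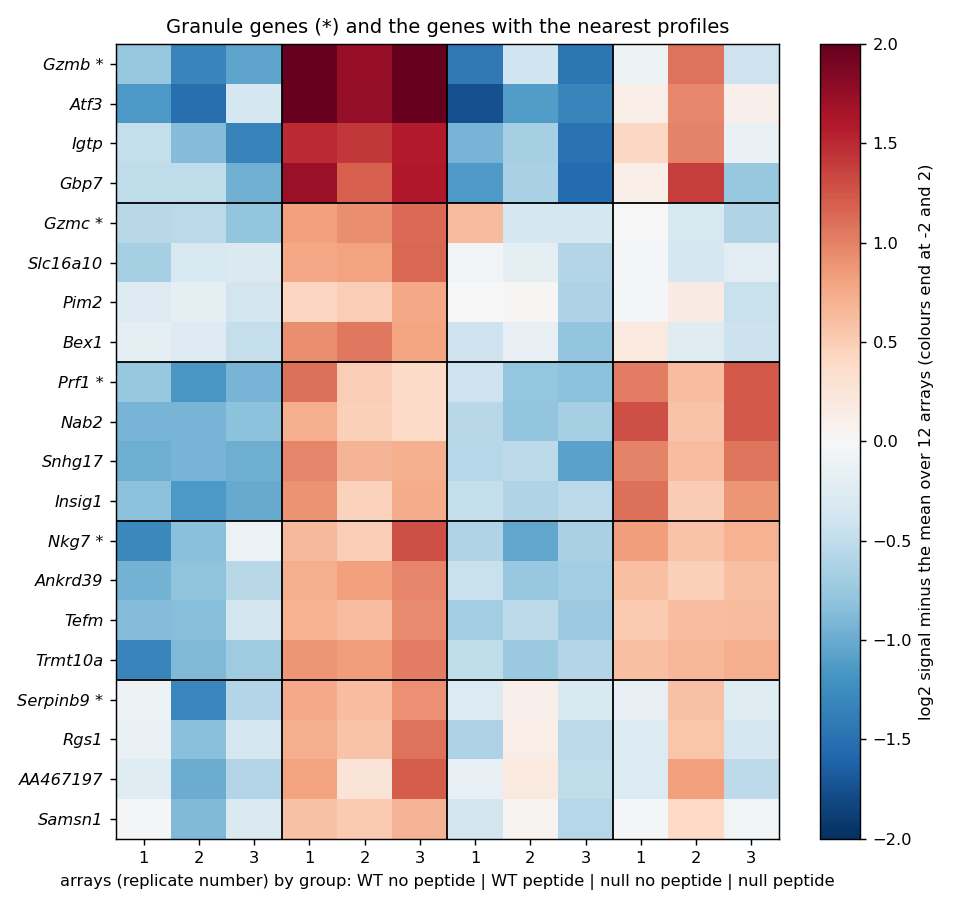
Heat map with a column for each of the 12 arrays, by group and replicate, and a row for each of 5 granule genes (starred) and the 3 genes nearest to each. Colour is the log2 signal minus the gene's own mean over the arrays, red above and blue below, ending at -2 and 2. The 3 genes nearest to Gzmb differ from it by 0.371 to 0.383 in root mean square, and those nearest to Prf1 by 0.171 to 0.193.

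Markers of other cells moved with genotype and peptide. The mean of 8 B cell markers was 9.05 to 9.15 in unstimulated and 8.16 to 8.37 in stimulated wild-type cells, and 9.55 to 10.21 and 8.88 to 9.51 in null cells. After peptide 3 of the 8, Cd79b, Fcrla and Ighm, were higher in null cells, by 1.19, 1.25 and 1.45, and so was Sdc1 of 5 plasma cell markers, by 1.26. Of all genes 1.09% were called higher. Before peptide 0 of the 8 B cell markers were called. All 8 had an unadjusted limma p under 0.05 before peptide (median difference 0.65), and 7 of 8 after it (0.80). Of all 18193 genes, 1928 and 3202 had such a p. The part of the B cell and plasma cell markers in the lower Gzmb and Gzmc of null cells was not tested.

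T cell markers showed 0 of 9 called between genotypes by limma in either state (0 unstimulated and 5 stimulated had an unadjusted p under 0.05), with a list mean of 10.88 to 10.94 in stimulated wild-type and 10.69 to 11.12 in stimulated null cells. NK markers were at 6.10 to 6.22 and 5.70 to 6.17 in the same groups, and 1 of 8, Klrd1, was lower in null cells, by 0.92 (limma adjusted p = 0.027). At an unadjusted p under 0.05 there were 4 of 8 after peptide (list median -0.28) and 2 of 8 before it, where Klrd1 differed by -1 (limma adjusted p = 0.063). Of all 18193 genes, 3202 after and 1928 before peptide had an unadjusted p under 0.05. The NK cell receptor gene Ncr1 lay between group means of 3.73 and 3.95, and Itga2 between 3.63 and 3.84, both below the array medians. The 6 memory-phenotype CD8 markers were at 7.96 to 8.62 in unstimulated wild-type and 8.04 to 8.78 in unstimulated null cells, and at 8.64 to 8.98 and 8.27 to 9.06 after peptide. Peptide raised 2 of the 6 in wild-type and 1 in null cells by limma, against 15.1% and 12.5% of all genes. Cd44 of this list changed by 1.30, 1.64 and 1.54 in wild-type mice and by 0.73, 0.49 and 0.57 in null mice. The list thus need not track cell numbers after peptide. After peptide all 6 differences, null minus wild type, lay below 0, from -0.52 to -0.01 (median -0.33), and the difference of the peptide effects was -0.89 to -0.16. None was called by limma between genotypes (0 without and 1 with peptide at an unadjusted p under 0.05), and their part in the lower Gzmb and Gzmc was not tested. Mast cell markers, which were listed because mast cells also store serglycin and granzyme B, were at 4.60 to 4.77 and 4.51 to 5.29 in stimulated cells. Myeloid markers were at 6.34 to 6.41 and 6.23 to 6.74, and CD4 T cell markers at 6.02 to 6.25 and 6.15 to 6.32, with 0 called between genotypes by limma in each of these 3 lists and at most 2 of a list at an unadjusted p under 0.05.

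**Figure D5:**
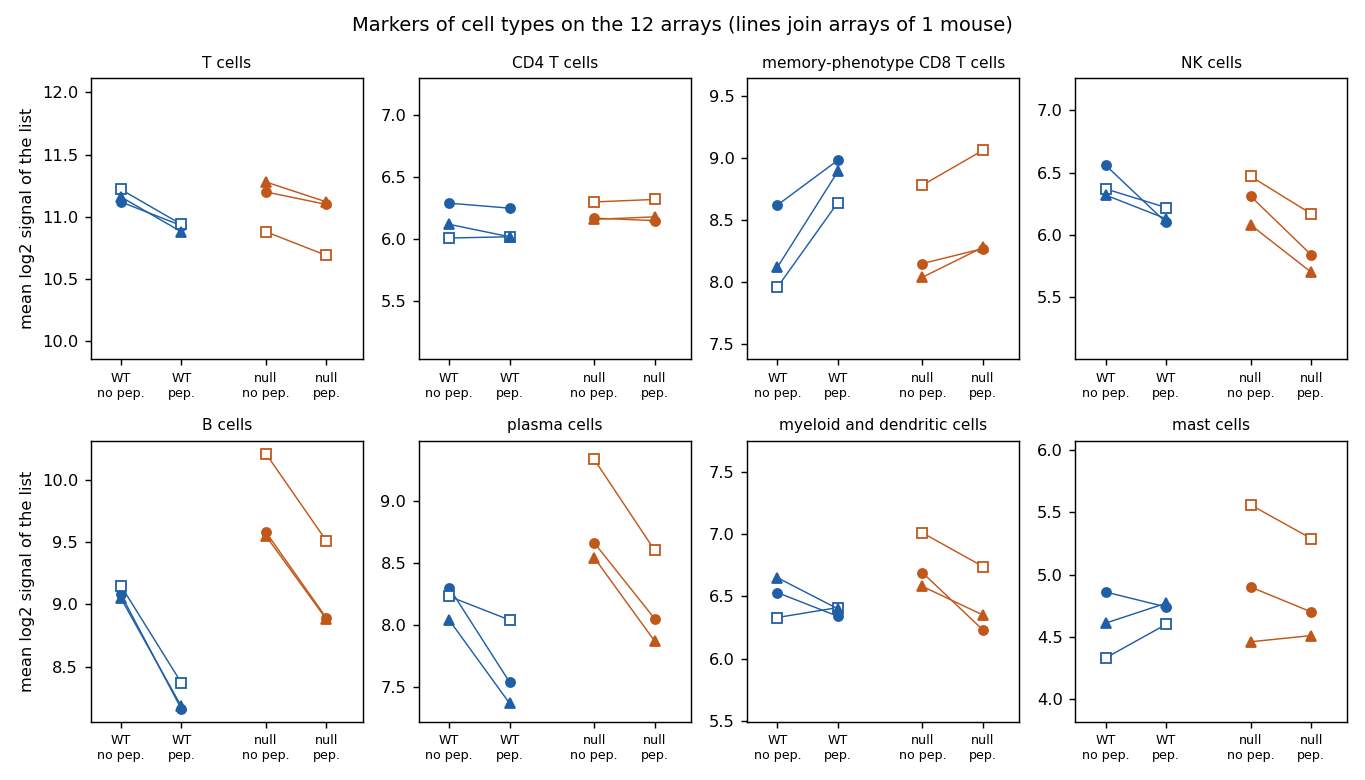
Mean log2 level (vertical axis) of each marker list on the 12 arrays, by group, with wild-type mice in blue and PKD2-null mice in orange; circles, hollow squares and triangles are replicates 1, 2 and 3. The B cell list lies higher in null than in wild-type cells in both states. Null replicate 2 is the highest null array of every list except that of T cells, where it is the lowest.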

How the data were processed

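RNA of lymph node cells of 3 mice a genotype (wild type and PKD2-null), each with and without peptide, was measured on 12 Affymetrix arrays. The deposited log2 values, in 1 table of 45101 probe sets, were made by the authors with Affymetrix Expression Console 1.1, per the submitters' processing notes. Their normalization method was not given in the sources used here. Values ran from 2.427 to 15.07, the sorted values of 2 arrays never lay more than 0.253 apart, and no further normalization was applied. The number of identical array pairs was 0. An array gives no read depth, and 3 arrays a group limit the precision.

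After leaving out 64 control probe sets, 45037 entered a group-means fit (limma 3.58.1, R 4.3.3) with eBayes moderation, on 8 residual degrees of freedom plus a prior worth 4.18. It gave 5 comparisons: the peptide effect in each genotype, the genotype difference without and with peptide, and the difference of the effects. Each gene was read from its probe set with the highest mean, and probe sets with several symbols (932) were not used. The script was tested on simulated data.

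Array labels name the animal, so replicate numbers pair the 2 arrays of 1 mouse. Deviations of the 2 arrays of 1 mouse correlated at 0.116 to 0.577, against at most 0.129 between mice. The fit with the mouse as a block (random for genotype comparisons, with a within-mouse correlation of 0.202) was an alternative, beside averaging the probe sets of each gene, quantile normalization, centring on array medians, a filter on dim probe sets, a variance trend, only the groups compared, and leaving out each mouse. Named are the 9 granule genes, Prkd2 and the nearest profiles. From the other lists, up to 4 called genes with the largest wild-type change and every gene called between genotypes are named. Sytl2 and Zeb2 are named beyond this rule. Of the marker lists, the genes called between genotypes and some others are named, but not every marker called with peptide. Tnf, Lta, Fasl and Cd44 were added after their values were seen. The genes and lists were chosen with earlier results of these data known. RefSeq tables (GRCm38.p6) gave names, gene order and promoter sequences; the build bears on no signal. Protein sequences were not used here.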

Additional observations from a re-analysis of the deposited data

Results flagged for a closer look

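The peptide effect on Gzmb differed between the genotypes by -1.71 with the mouse as a block (limma adjusted p = 0.016), and that on Gzmc by -1.88 (limma adjusted p = 0.034). Each was picked out because the difference of the effects itself passed the test in that fit. The rise in Gzmb was smaller in 3 of 3 null mice than in any wild-type mouse, and so was the change in Gzmc. Responses separated in this way for 11.2% of all genes. Neither the Gzmb nor the Gzmc difference passed with the arrays treated as unrelated (limma adjusted p = 0.51 and 0.23). With 1 mouse left out at a time, an alternative chosen after seeing the data, the blocked Gzmb difference was called in 4 of 6 fits (adjusted p 0.026 to 0.15) and the Gzmc difference in 2 of 6 (0.046 to 0.15).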

How the results depend on the processing

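The rises of Gzmb, Gzmc, Prf1, Nkg7, Srgn and Serpinb9 in wild-type cells kept their call in 13 of 13 alternatives, second probe sets and the blocked fits without 1 mouse aside. With those blocked fits, chosen after seeing the data, the Srgn rise in null cells was called in 5 of 6. The second Prf1 probe set, at -0.24, was the 1 called change that turned. The count of granule genes called lower in stimulated null cells, 2, was 1 with a variance trend and robust moderation, 1 with only the groups compared, and 0 to 2 with 1 mouse left out; it was 0 without any 1 wild-type mouse or null replicate 3, 1 without null replicate 1, and 2 without null replicate 2. With a variance trend the uncalled gene was Gzmb (adjusted p = 0.056). The count for the difference of the effects, 0, was 2 with the mouse as a replicate block, 1 without null replicate 2 (Gzmb, adjusted p = 0.048), and 0 to 2 without 1 mouse in the blocked fit. The Gzma fall in wild-type cells was also called with only the groups compared (adjusted p = 0.031). The cause of these changes was not tested, except that fits without a mouse or with only 2 groups hold fewer arrays. Over all genes, 99 were lower and 199 higher in stimulated null cells; these counts were 17 and 36 with only the groups compared, and 13 to 215 and 26 to 349 without 1 mouse. The block gave 6 higher and 19 lower calls for the difference of the effects. Of 748 changes of granule genes recomputed over 19 settings or from second probe sets, 15 lost a call and 26 gained one. The 1 called change that turned came from the second Prf1 probe set and from none of the settings. The other 706 stayed on their side of the threshold, although uncalled changes near 0 could turn their sign. Without null replicate 2, the counts in stimulated null cells went from 1 to 3 for killing ligands and effectors called lower, from 1 to 2 for granule proteases called higher and from 0 to 1 for biogenesis genes called higher; all genes called without peptide went from 2 higher and 6 lower to 17 and 16.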
